A study of Neurospora crassa OR74A with 2 samples.

Results

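Sugar enters a Neurospora crassa cell through membrane transporters of the major facilitator type. Glucose is taken up by a dual system: a low-affinity carrier serves when glucose is plentiful, and high-affinity carriers serve when it is scarce. Cellodextrins, short glucose chains released from cellulose, and galacturonate, the acid sugar of pectin, have carriers of their own, which are known to be induced by plant cell wall material and repressed by glucose. The 7 genes described here were taken by locus tag from the 8564 genes with a value, whatever their level. They were the low-affinity glucose transporter gene glt-1 (NCU01633), the high-affinity glucose transporter genes hgt-1 (NCU10021) and hgt-2 (NCU04963), the glucose sensor gene rco-3 (NCU02582), the cellodextrin transporter genes cdt-1 (NCU00801) and cdt-2 (NCU08114), and the galacturonate transporter gene NCU00988. The gene table of assembly NC12 gives a symbol for 4 of the 7 (rco-3 as a synonym of sor-4), whereas the names glt-1 and hgt-2 and the substrate of NCU00988 are taken here as background knowledge, not from the files or the table.

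RNA was sequenced from 1 library of a strain deleted for pp-1 (Δpp-1), which lacks a Ste12-type transcription factor, and from 1 library of the wild type FGSC 2489. Asexual spores (conidia) were seeded at 1000000 per ml for both, and the germlings were collected after 5 h at 30 °C. The carbon source of the medium, the mating type and the number of independent deletion isolates are not stated in the labels. Levels are RPKM as deposited, that is, reads per kilobase of gene and per 1000000 reads, so levels of different genes can be set side by side.

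The library totals behind the scaling were read from the spacing of the lowest values and came to 9363920 reads for Δpp-1 and 7870075 for the wild type. A spacing 2 times as large, which would give totals and read numbers smaller by the same factor, accounts for 16 of 31 genes on the steps in Δpp-1 and 17 of 32 in the wild type, and the remaining 15 in each lay at odd multiples. The deleted gene, pp-1 (NCU00340), stood at 1.69 RPKM in Δpp-1 and 83.8 RPKM in the wild type, so the low value was in the library labelled as the deletion. Among the 4831 genes that reached 10 RPKM in at least 1 library, the median log2 fold, Δpp-1 over wild type on RPKM + 1, was -0.28 in the values as deposited. The conidial marker genes did not all differ alike between the libraries. Their summed level was 334 RPKM in Δpp-1 (7 genes, 0.668 to 187) and 89.8 RPKM in the wild type (1.83 to 41.1), 4 of the 7 were past 2-fold higher in Δpp-1 (2.73% of the 4831 genes were) and none was at 0. Of the 4 higher ones, con-6 and eas reached 10 RPKM in Δpp-1 only. The carotenoid gene al-1 alone gave 187 RPKM of the sum in Δpp-1 and 41.1 RPKM in the wild type. The other 3 markers had log2 folds of -0.76 (acon-3), -0.11 (ccg-1) and -0.07 (fl). The counting interval of the log2 ratio held 0 for ccg-1 (-0.75 to 0.50) and for fl (-0.77 to 0.55). That of acon-3 lay below 0 (-3.04 to -0.19), at 0.668 RPKM in Δpp-1 and 1.83 RPKM in the wild type. The part of the conidial markers in the results below was not tested. With 1 library per strain there is no replicate spread and no p-value, and every difference below is one between these 2 libraries. Fewer germlings that use a gene and less of its RNA per germling cannot be told apart. Intervals are 95% counting intervals and cover counting error only.

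The low-affinity transporter gene glt-1 was by far the highest of the 7 in both strains. It stood at 459 RPKM in Δpp-1 (counting interval 448 to 471) and at 706 RPKM in the wild type (690 to 722). This placed it at rank 175 in Δpp-1 and at rank 143 in the wild type among the 8564 genes, above about 98% of them in each. The ratio Δpp-1 over wild type was 0.650, a log2 ratio of -0.62 with a counting interval from -0.67 to -0.57. On the scale of RPKM + 1 the log2 fold was also -0.62, short of 2-fold, and 21.0% of the 4831 genes had a lower one. Relative to the median of these genes, glt-1 was 0.34 lower on the log2 scale.

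The high-affinity transporter gene hgt-2 was the member with the largest difference. It stood at 9.79 RPKM in Δpp-1 (8.03 to 11.8) and at 26.4 RPKM in the wild type (23.2 to 29.9), and the intervals did not overlap. Its level in the wild type was 2.70 times that in Δpp-1. The log2 ratio was -1.43, with a counting interval from -1.78 to -1.11. With the pseudocount of 1 RPKM the log2 fold was -1.34, or -1.07 relative to the median gene, and 194th from the lowest of the 4831. Among all 8564 genes, those listed at 0 included, the transcript lay at percentile 49.9 in Δpp-1 and at percentile 70.4 in the wild type. The second high-affinity gene, hgt-1, was listed at 0 in both libraries. A listed 0 is not a measurement of absence in these files. The genes ckb-1, which encodes a subunit of casein kinase II, and met-8, of the methionine pathway, were listed at 0 in both libraries as well.

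**Figure D1:**
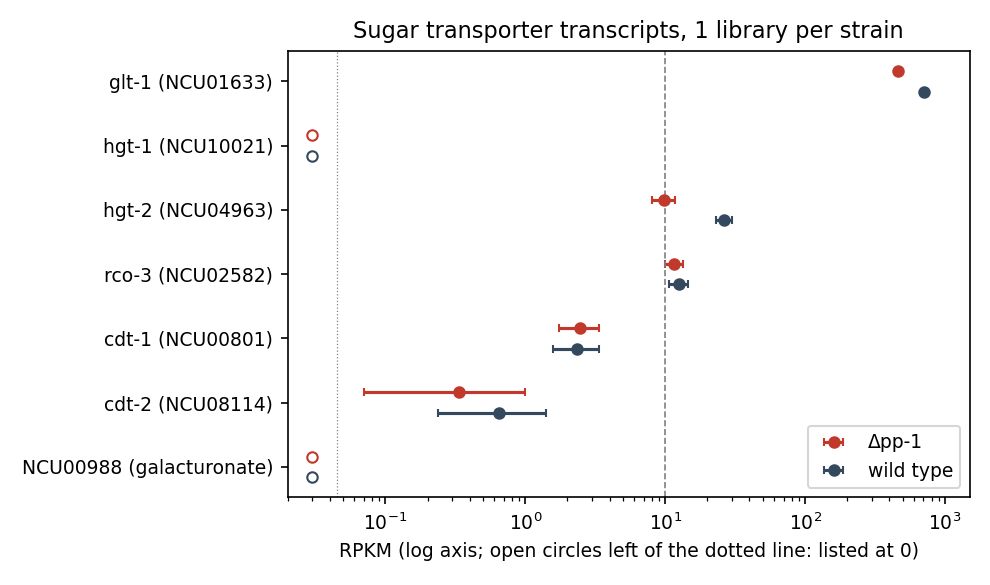
Level of each of the 7 genes in RPKM on a log axis, Δpp-1 above the wild type in each row. Bars are 95% counting intervals, open circles mark genes listed at 0, and the dashed line marks 10 RPKM. The bars of hgt-2 (9.79 RPKM in Δpp-1 and 26.4 RPKM in the wild type) and of glt-1 do not overlap between the strains, and those of rco-3, cdt-1 and cdt-2 do.

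Transcripts of low-affinity and high-affinity glucose transport were then set against each other inside each library. The ratio of 2 genes there is free of the scaling between libraries. Uptake itself was not measured. The glt-1 level was 46.9 times that of hgt-2 in Δpp-1 and 26.8 times in the wild type. The balance of these transcripts was thus shifted further towards glt-1 in Δpp-1, although both were lower there in the deposited values. The ratio was 1.75 times as large in Δpp-1, a log2 difference of 0.81 with a conditional exact counting interval from 0.48 to 1.16. Because hgt-1 was listed at 0, which is not a measurement of absence, hgt-2 alone stands for the high-affinity genes here. Of the RPKM listed for glt-1, hgt-1 and hgt-2 together, 469 in Δpp-1, against 733 in the wild type, hgt-2 made up 2.09% in Δpp-1, against 3.60% in the wild type.

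The glucose sensor gene rco-3 differed little between the strains. RCO-3 resembles sugar transporters in sequence, and rco-3 mutants are known for altered glucose transport and for conidiation under conditions that repress it in the wild type. It stood at 11.6 RPKM in Δpp-1 (10.0 to 13.4) and at 12.5 RPKM in the wild type (10.7 to 14.4), with overlapping intervals. The log2 ratio was -0.10, with an interval from -0.40 to 0.21. Whether it is counted as lower or higher depends on the scaling, since its log2 fold was -0.09 in the deposited values and 0.14 with each library scaled by its median. For a gene length of 1785 bases, the shorter of 2 that give whole reads in both libraries, these values are 194 reads in Δpp-1 and 175 reads in the wild type. No length tried gave whole reads in both libraries for hgt-2, and 11 lengths did for glt-1, so no such read numbers are given for them.

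Measured against rco-3, the glucose transporter transcripts were both lower in Δpp-1. The ratio of hgt-2 to rco-3 was 0.843 in Δpp-1, against 2.12 in the wild type, a log2 difference of -1.33 with an interval from -1.80 to -0.89. The order of the 2 genes was thus opposite in the libraries: hgt-2 lay below rco-3 in Δpp-1, where their intervals overlapped, and above it in the wild type, where they did not. For glt-1 over rco-3 the ratio was 39.6 in Δpp-1, against 56.7 in the wild type, a log2 difference of -0.52 with an interval from -0.83 to -0.22.

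**Figure D2:**
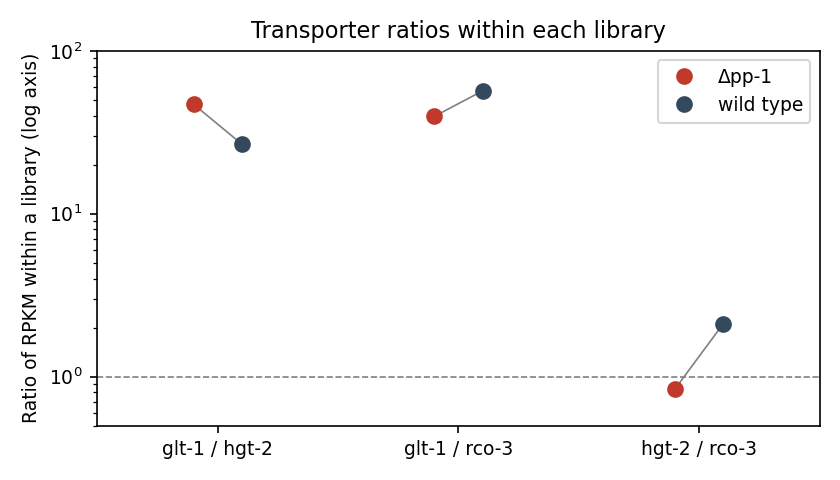
Ratio of RPKM between 2 genes of the same library, on a log axis, with Δpp-1 left of the wild type for each pair and a dashed line at a ratio of 1. The ratio of glt-1 to hgt-2 is 46.9 in Δpp-1, against 26.8 in the wild type, and that of hgt-2 to rco-3 is 0.843 in Δpp-1 and 2.12 for the wild type, on opposite sides of 1.

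The cellodextrin transporter genes were low in both strains. CDT-1 and CDT-2 carry cellodextrins into the cell, where a β-glucosidase splits them to glucose. The cdt-1 transcript stood at 2.46 RPKM in Δpp-1 (1.73 to 3.38) and at 2.34 RPKM in the wild type (1.56 to 3.36), and cdt-2 at 0.338 RPKM in Δpp-1 (0.0698 to 0.989) and 0.644 RPKM in the wild type (0.236 to 1.40). The libraries overlapped for both genes. For cdt-2 only 1 gene length gives whole reads in both libraries, 1578 bases, with 5 reads in Δpp-1, against 8 in the wild type. The cdt-1 reads stood as 5 to 4 at each of 5 possible lengths, the lowest being 30 reads in Δpp-1 and 24 reads in the wild type. The log2 ratio was 0.07 for cdt-1, with an interval from -0.64 to 0.85, and -0.93 for cdt-2, with an interval from -3.88 to 0.98. For cdt-2, equal levels, a level several times lower in Δpp-1 and a higher level there could not be told apart at this depth. Together cdt-1 and cdt-2 reached 2.79 RPKM in Δpp-1 and 2.98 RPKM in the wild type. The galacturonate transporter gene NCU00988 was listed at 0 in both libraries, like 6.53% of all genes.

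By level, then, the order in Δpp-1 was glt-1, rco-3, hgt-2, cdt-1 and cdt-2, with rco-3 and hgt-2 not separated by their intervals. In the wild type it was glt-1, hgt-2, rco-3, cdt-1 and cdt-2, and no neighbours overlapped. Of the 7 genes, 3 reached 10 RPKM in a library, glt-1 and rco-3 in both and hgt-2 in the wild type only. A gene that reaches this level in the wild type only can be called lower in Δpp-1 but not higher. One of these, hgt-2, was past 2-fold lower in Δpp-1 and no member was past 2-fold higher, while over all 4831 genes at that level 6.98% were 2-fold lower and 2.73% were 2-fold higher. A count of 1 among 3 cannot be read against these shares. Of the other 4 genes, 2 were above 0 but under 10 RPKM and 2 were listed at 0.

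How the libraries are scaled shifted the log2 folds of glt-1 and hgt-2 by similar amounts, but only hgt-2 had a 2-fold call that depended on it. The log2 fold of glt-1 was -0.62 as deposited, -0.36 with median scaling, -0.38 with upper-quartile scaling and -0.22 with both libraries brought to a sum of 1000000. For hgt-2 the values were -1.34, -1.10, -1.12 and -0.9996 under the same scalings, the last just short of 2-fold. Both genes stayed below 0 in all 4.

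**Figure D3:**
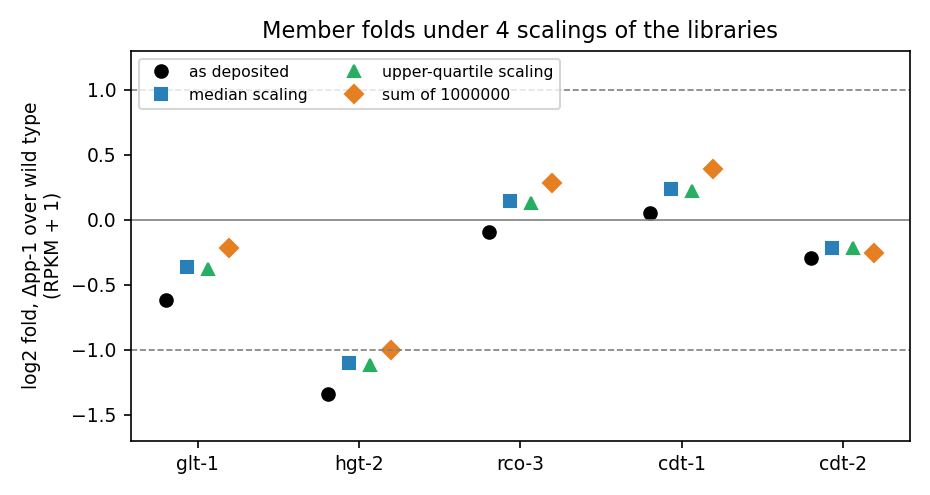
The log2 fold, Δpp-1 over wild type on RPKM + 1, of the 5 genes above 0, under 4 scalings of the libraries. Dashed lines mark 2-fold. The points of hgt-2 lie between -1.34 and -0.9996 and those of glt-1 between -0.62 and -0.22, and the points of rco-3 fall on both sides of 0.

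Other genes of sugar use were taken from lists drawn up by locus tag. The first held 10 further tags drawn up as sugar transporters, of which the gene table names qa-Y, the quinate permease gene, and gives no role for the other 9. This list, the other lists and the 7 members were chosen with earlier results of these data known. Of the 10, 3 reached 10 RPKM in a library, and these 3 were past 2-fold lower in Δpp-1, as were 6.98% of all 4831 genes at that level. One of them, NCU04537, reached that level in the wild type only. NCU05627 stood at 23.2 RPKM in Δpp-1 and 105 RPKM in the wild type, NCU00821 at 11.2 RPKM in Δpp-1 and 47.6 RPKM in the wild type, and NCU04537 at 3.69 RPKM in Δpp-1 and 15.5 RPKM in the wild type. Each of these was a larger difference than that of hgt-2, with log2 folds of -2.12, -1.99 and -1.82. The median log2 fold of the 6 whose mean was 1 RPKM or more was -1.76, against -0.25 over the 6885 such genes of the table, and over all 10 it was -0.62, against -0.18 over all 8564. NCU09287, named after seeing its values, went the other way, at 4.61 RPKM in Δpp-1 and 2.52 RPKM in the wild type, with a log2 ratio of 0.87 and an interval from 0.16 to 1.59. The level of qa-Y, a gene named after seeing its values, was 6.88 RPKM in Δpp-1 and 7.72 RPKM in the wild type.

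Over all 4831 genes that reached 10 RPKM in a library, 6.98% were 2-fold lower and 2.73% 2-fold higher. Among 6 genes of glucose phosphorylation and glucose signalling, all above 10 RPKM, 1 was 2-fold lower and none 2-fold higher. This was cre-1 (NCU08807), the carbon catabolite repressor gene, at 41.8 RPKM in Δpp-1 and 101 RPKM in the wild type, with a log2 fold of -1.25. The call depended on the scaling: the fold was -0.99 with median scaling and -0.86 with the sum of 1000000, both short of 2-fold, and -1.01 with upper-quartile scaling. The other 5 ran from -0.84 to 0.58, and the median of the list was -0.26. Of 4 genes of sucrose, trehalose and xylose use, 2 reached 10 RPKM in a library. These 2 were past 2-fold lower, as were 6.98% of all 4831 genes at that level, and no gene was higher by that much. The invertase gene inv (NCU04265), whose enzyme splits sucrose outside the cell, stood at 57.6 RPKM in Δpp-1 and 166 RPKM in the wild type. The xylose reductase gene xr (NCU08384) stood at 3.99 RPKM in Δpp-1 and 34.6 RPKM in the wild type. Of these, xr reached 10 RPKM in the wild type only. The list median was -1.02.

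The genes that act with the cellodextrin and galacturonate carriers were mostly low in both libraries. None of 8 genes of cellobiose and cellulose use reached 10 RPKM in either library, and their highest values were 4.63 RPKM in Δpp-1 and 6.29 RPKM in the wild type. The lowest log2 folds were those of the cellobiohydrolase gene gh6-2 (-1.09) and the cellobiose dehydrogenase gene cdh-1 (-0.85), and the highest were those of gh3-3 (0.74) and NCU09425 (0.26). None of 6 regulators of polysaccharide use reached 10 RPKM. Their log2 folds ran from -1.08 for NCU05414 and -0.51 for NCU05846 to 0.36 for clr-1, which encodes an activator of cellulase genes, and 0.36 for NCU09033. The medians of these 2 lists, -0.15 and -0.18 as deposited, were above 0 under each of the 3 other scalings, at 0.06 and 0.02 with median scaling. Of 6 genes of galacturonate and pectin use, 2 reached 10 RPKM and 1 of these was 2-fold lower, as were 6.98% of all 4831 genes at that level. This was the polygalacturonase gene gh28-1 (NCU02369), at 1.56 RPKM in Δpp-1 and 18.3 RPKM in the wild type. It reached 10 RPKM in the wild type only. The other 4 with a mean of at least 1 RPKM ran from -0.27 to 0.52, and the list median was -0.21 as deposited and 0.0061 with median scaling.

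**Figure D4:**
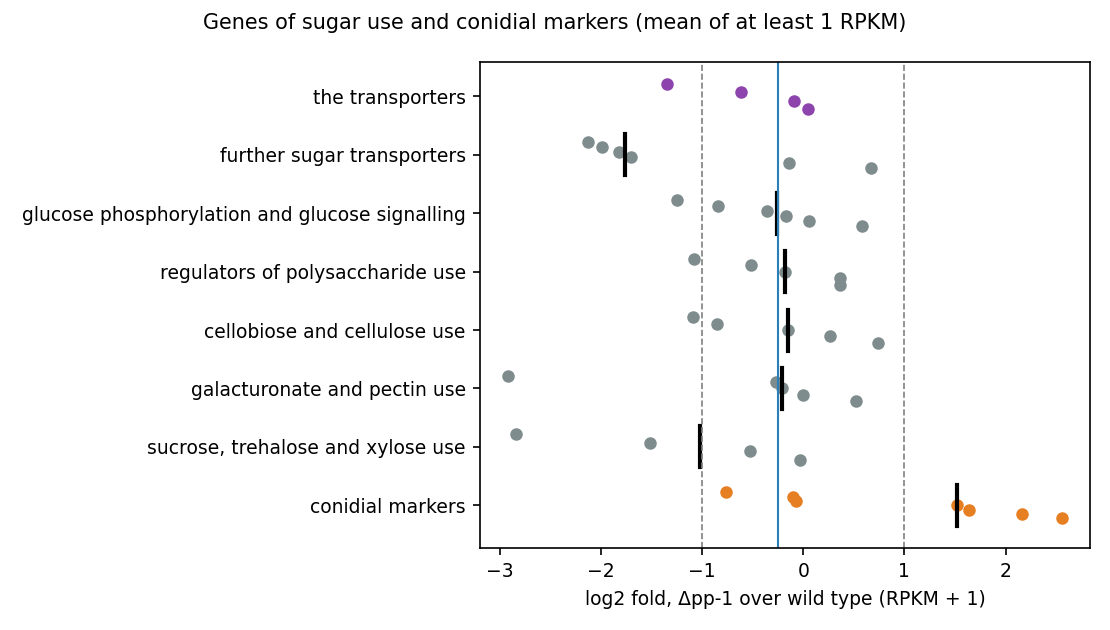
The log2 fold, Δpp-1 over wild type on RPKM + 1, of each gene with a mean of at least 1 RPKM, by list. Black bars are list medians, the blue line is the median of all 6885 such genes (-0.25) and dashed lines mark 2-fold. The further sugar transporters have their median at -1.76, the conidial markers at 1.52, and sucrose, trehalose and xylose use at -1.02. The medians of the other lists lie near the blue line, while their single genes run from -2.92 (gh28-1) to 0.74 (gh3-3).

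In the gene table, 28 genes lie within 2 places of the 7 members, and 17 of them had values. Of the 4 that reached 10 RPKM in a library none was past 2-fold, with log2 folds from -0.43 to 0.18. The span of NCU10770 overlaps that of cdt-1 by 340 bases and the span of NCU00987 overlaps that of NCU00988 by 132 bases, and with libraries that are not described as stranded, reads there cannot be assigned by strand. Over the 2 libraries, the named gene closest to glt-1 on the log2 scale was eth-1 (481 RPKM in Δpp-1 and 697 RPKM in the wild type, distance 0.0698). The closest to hgt-2 was pht-1 (10.9 RPKM in Δpp-1 and 27.1 RPKM in the wild type, distance 0.149) and the closest to rco-3 was stk-32 (11.4 RPKM in Δpp-1 and 12.6 RPKM in the wild type, distance 0.0255). With 2 libraries, such closeness says no more than that these levels are alike.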

How the data were processed

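Each library came as 1 table of RPKM values, as deposited by the authors (RPKM per the file headers). The submitters' processing notes name TopHat and Cufflinks with no version, and the build and annotation are not given in the sources used here. Per the labels' protocols, mRNA was selected on oligo(dT) beads and cDNA was made with random primers. Each table had 8802 lines for 8564 genes, and the 238 genes listed more than once were counted once.

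Folds are log2((Δpp-1 + 1)/(wild type + 1)), and calls use 2-fold and at least 10 RPKM in the higher library. With 1 library per strain no test was run.

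RPKM times annotated span piled up at whole multiples of 0.107 in Δpp-1 (31 genes, against at most 5 for a step not related to it by a simple ratio) and of 0.127 in the wild type (32 against at most 6), taken as 1 read per kilobase. No gene lay at 1 such step, while 10 genes lay at 2 of them in Δpp-1 and 6 genes in the wild type. Of 1203 genes with 2 values between 0 and 3 RPKM, 94.3% had a length, in multiples of 3 bases and between 30% and 100% of the span, at which both values were whole reads within 0.01, against 20.9% after raising the Δpp-1 values by 5%. Intervals are exact (Poisson for levels, Clopper-Pearson for ratios, conditional odds ratio for ratios of ratios) on 50% of the reads that RPKM and the full span give, since spans hold introns. PCR copies are not independent molecules.

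Members and lists were chosen with earlier results of these data known. The named genes were the 7 members, pp-1, list genes past 2-fold (otherwise up to 2 at each end of a list), and the nearest named gene of each member above 10 RPKM. Symbols and neighbours came from NCBI RefSeq's table of assembly NC12. No sequences were used here. Python 3.11.15, numpy 2.4.6, pandas 2.3.3 and scipy 1.17.1 were used, and folds and read steps were tested on simulated data.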

Additional observations from a re-analysis of the deposited data

How the results depend on the processing

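No paired analysis was possible because there was 1 library per strain, and no replicate could be left out. Of 95 values recomputed under the alternatives, 80 stayed within their counting error or, for counts of genes, within 1.5 times, 15 moved by more, and no called value changed sign. Rescaling moved glt-1 to -0.36 (median), -0.38 (upper quartile) and -0.22 (sum of 1000000). The sum of 1000000 also moved hgt-2 to -0.9996 and rco-3 to 0.29. The median of the glucose phosphorylation and signalling list moved to -0.012 (median), -0.028 (upper quartile) and 0.13 (sum). The medians for cellobiose and cellulose use, for regulators and for galacturonate and pectin use turned positive with median scaling (0.056, 0.020 and 0.0061) and with the sum (0.19, 0.14 and 0.13), and the first 2 also with the upper quartile (0.043 and 0.0074). A pseudocount of 5 gave 0.47 for glt-1 minus hgt-2 and -1.06 for the further transporters, as it shrinks low values. The count of members 2-fold lower was 0 with the sum of 1000000, with a minimum of 30 RPKM and at 4-fold, but 2 at 1.5-fold, against 1. The minimum of 30 RPKM leaves out hgt-2 by its level alone (26.4 RPKM in the wild type). The second gene at 1.5-fold was glt-1, and 21.0% of the 4831 genes had a lower log2 fold than glt-1. Shares of all genes were not counted at 30 RPKM, 1.5-fold or 4-fold, so these member counts cannot be read against them. The 7 genes of the 6 lists of sugar use that were 2-fold lower became 6 with median scaling, without cre-1 (-0.99). With the sum of 1000000, cre-1 (-0.86) was also short of 2-fold. The count of lower genes was still 7 there, since another gene passed the level limit on the scaled values. Apart from these, 1 gene of the 6 lists was 2-fold higher with that scaling, against 0. Over all genes past the level limit, 337 lower and 132 higher became 210 and 215 (median scaling), 216 and 205 (upper quartile), or 230 and 387 (sum), when the level limit was applied to the scaled values. Among the members above 0, depth limits cdt-2 most, at 5 reads in Δpp-1 and 8 reads in the wild type.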
